A study of Homo sapiens with 4 samples.

Results

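The Fc gamma receptor genes FCGR1A, FCGR2A, FCGR2B, FCGR3A and FCGR3B were examined in ATAC-seq peak lists of HL-60 cells, a human myeloid leukemia line. ATAC-seq maps open chromatin as the places where the Tn5 transposase can cut, and a peak is a stretch where cuts pile up. In the ATRA group, the cells received 1 µM all-trans retinoic acid (ATRA) in ethanol for 4 days, and in the control group they received ethanol alone for the same time. In both groups the medium was replaced on day 2 with the agent added again. Each group had 2 replicates, which the study called independent biological replicates, and each library had its own peak list.

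These 5 genes, of 20163 protein-coding genes, were chosen by name, and every peak that overlapped a gene body or the 50 kb on either side of it was taken. The ranges of FCGR2A, FCGR3A, FCGR3B and FCGR2B ran into each other and formed the FCGR2/FCGR3 window at chr1:161425220-161698444 (hg19), and FCGR1A had a window of its own at chr1:149704227-149813231. Peaks of the 4 lists that overlapped by at least 1 bp were joined into regions. The windows held 41 of the 78063 regions of the genome, 12 at FCGR1A and 29 at FCGR2/FCGR3, and they are numbered here R01 to R41 in their order along chromosome 1. The strength of a peak is given as the percentile of its score within the list of its own library.

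Fc gamma receptors bind the constant part of IgG antibodies and link antibody-coated particles to phagocytosis, degranulation and the oxidative burst of myeloid cells. FCGR1A encodes the high-affinity receptor CD64. FCGR2A encodes CD32A, an activating receptor whose own tail carries the signalling motif, whereas FCGR2B encodes CD32B, the inhibitory member of the family. FCGR3A encodes CD16A, which signals through partner chains and is best known from NK cells and macrophages, and FCGR3B encodes CD16B, a lipid-anchored receptor of mature neutrophils.

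The FCGR2/FCGR3 genes lie in a segmental duplication, and this bears on every value at these loci. In the hg19 sequence, a stretch of chr1:161480907-161564008 (copy 1) matched chr1:161562571-161645839 (copy 2) over 81.7 kb of aligned sequence with 98.0% identity. Copy 1 holds the end of FCGR2A, FCGR3A and the beginning of FCGR2C, and copy 2 holds the end of FCGR2C, FCGR3B and FCGR2B up to near its end. Of the 50-base words of the FCGR2/FCGR3 window, 43.2% occurred elsewhere in the genome, and 75.1% did so in the FCGR1A window, whose sequence is also repeated elsewhere on chromosome 1. A read from such a word could belong to either copy, and how the aligner placed these reads is not given in the sources used here. Peaks at one copy and peaks at the other therefore cannot be told apart with certainty.

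To show how alike the copies are, 2 pairs of matching stretches of 160 bases are printed from the plus strand of hg19, with the bases that differ between the copies in capitals. The first pair, from R27 (chr1:161536117-161536276) and R37 (chr1:161617510-161617669), is a site with peaks in the ATRA libraries alone at either copy, and it differs at 4 bases.
R27: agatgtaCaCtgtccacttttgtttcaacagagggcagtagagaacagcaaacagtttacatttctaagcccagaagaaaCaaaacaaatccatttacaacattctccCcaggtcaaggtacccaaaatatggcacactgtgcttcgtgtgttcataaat
R37: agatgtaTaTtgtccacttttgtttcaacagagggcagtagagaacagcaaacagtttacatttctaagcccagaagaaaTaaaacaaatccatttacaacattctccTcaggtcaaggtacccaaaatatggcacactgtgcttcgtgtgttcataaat
The second pair lies just beyond the ends of FCGR3A (R23, chr1:161510411-161510570) and FCGR3B (R32, chr1:161591847-161592006), in the part of R23 that lay inside the peaks of both ATRA libraries and outside every control peak. It also differs at 4 bases.
R23: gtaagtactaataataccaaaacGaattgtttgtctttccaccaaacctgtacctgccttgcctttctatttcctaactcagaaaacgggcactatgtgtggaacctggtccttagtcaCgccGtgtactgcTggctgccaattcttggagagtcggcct
R32: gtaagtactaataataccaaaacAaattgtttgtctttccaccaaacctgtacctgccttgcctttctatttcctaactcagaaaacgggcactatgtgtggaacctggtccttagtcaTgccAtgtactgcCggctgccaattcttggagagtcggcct
Both pairs lie outside annotated exons. A short read that covers none of the 4 differing bases matches both copies equally well.

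**Figure D1:**
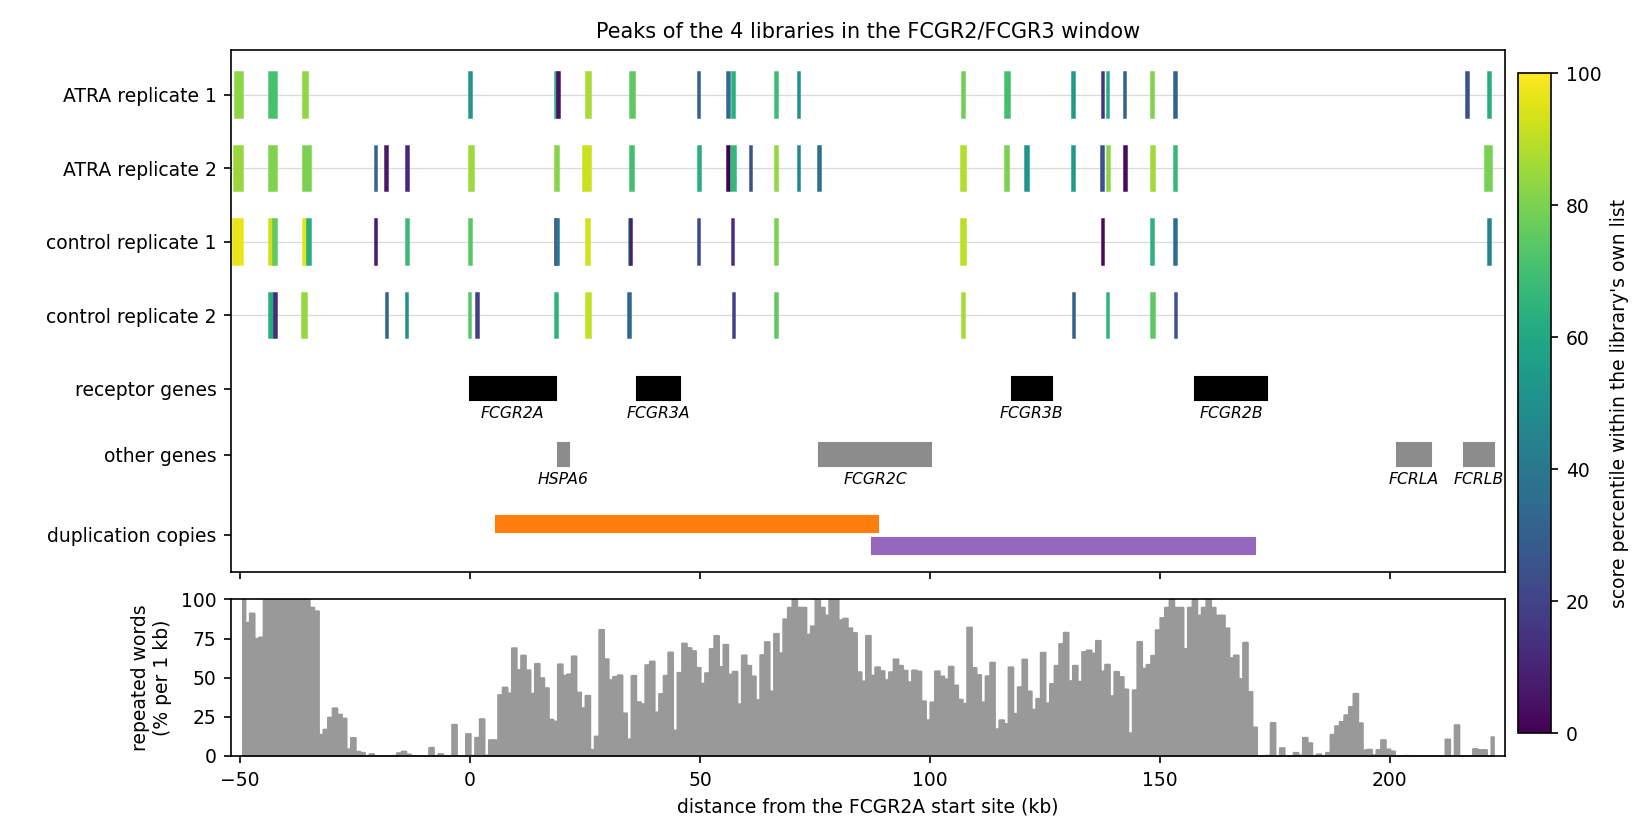
Peaks of the 4 libraries in the FCGR2/FCGR3 window (boxes, coloured by score percentile within the library's own list; narrow boxes are outlined so that they can be seen), against distance from the FCGR2A start site in kb. Bars below mark genes and the 2 copies of the duplication, and the grey profile gives the percentage of 50-base words that occur more than once in the genome, which is near 0 around the FCGR2A start site and high across both copies.

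The FCGR2/FCGR3 window held 23 and 27 peaks in ATRA replicates 1 and 2 and 21 and 17 peaks in control replicates 1 and 2. Both ATRA libraries lay above both control libraries, with means of 25 ± 2.83 and 19 ± 2.83 (SD, n = 2 each). The exact two-sided permutation test over the 4 libraries gave p = 0.33, the smallest p that 2 against 2 libraries allow. The list of ATRA replicate 2 was the longest, and per 1000 peaks of their own list the libraries held 0.529 and 0.425 against 0.499 and 0.370, so that the groups overlapped (exact permutation p = 0.667). The peaks covered 11265 and 18441 bp in the ATRA libraries and 9580 and 7578 bp in the control libraries.

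The FCGR1A window held 11 peaks in each ATRA library and 5 and 6 in control replicates 1 and 2, with means of 11 ± 0 and 5.5 ± 0.71 (SD, n = 2 each, exact permutation p = 0.33). Here the groups stayed apart per 1000 peaks, at 0.253 and 0.173 against 0.119 and 0.131. The covered length was 6126 and 9504 bp in the ATRA libraries and 5466 and 3490 bp in the control libraries, and both ATRA values were the higher. Per Mb of peaks in their own list the ATRA libraries covered 350 and 301 bp and the control libraries 320 and 214 bp, and these ranges overlapped. Most of the peaks lay in repeated sequence: when only peaks with at least 50% of their 50-base words unique were kept, the ATRA libraries held 1 and 2 peaks in this window and the control libraries 0 and 0.

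Sorted by library, 7 of the 41 regions (17.1%) had a peak in both ATRA libraries and in neither control library, against 8.94% of all regions. No region (0 of 41) had the opposite pattern, a peak in both control libraries and in neither ATRA library, which 3.37% of all regions had. A peak in all 4 libraries was present in 16 regions (39%), against 30.3% of all regions. Among those 16, both ATRA percentiles exceeded both control percentiles in 6 (37.5%, against 29.2% of such regions genome-wide) and both control percentiles exceeded both ATRA percentiles in 1 (6.25%, against 12.8%). Of the remaining 18 regions, 8 had a peak in 1 library alone, 5 of them in ATRA replicate 2.

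The count of 7 depended on how the copies were treated. A total of 31 regions had another copy in the genome with at least 95% identity over at least 50% of their length. When a library was credited with a region if it had a peak at any such copy, 3 of 41 regions (7.32%) were open in the ATRA libraries alone and 23 were open in all libraries. The shares of all regions of the genome under this rule were not computed. With copies counted, an excess over the genome was therefore not shown. R10 and R37 kept the pattern and R27 gained it. In the other 5 of the 7 regions a control library had a peak at another copy.

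**Figure D2:**
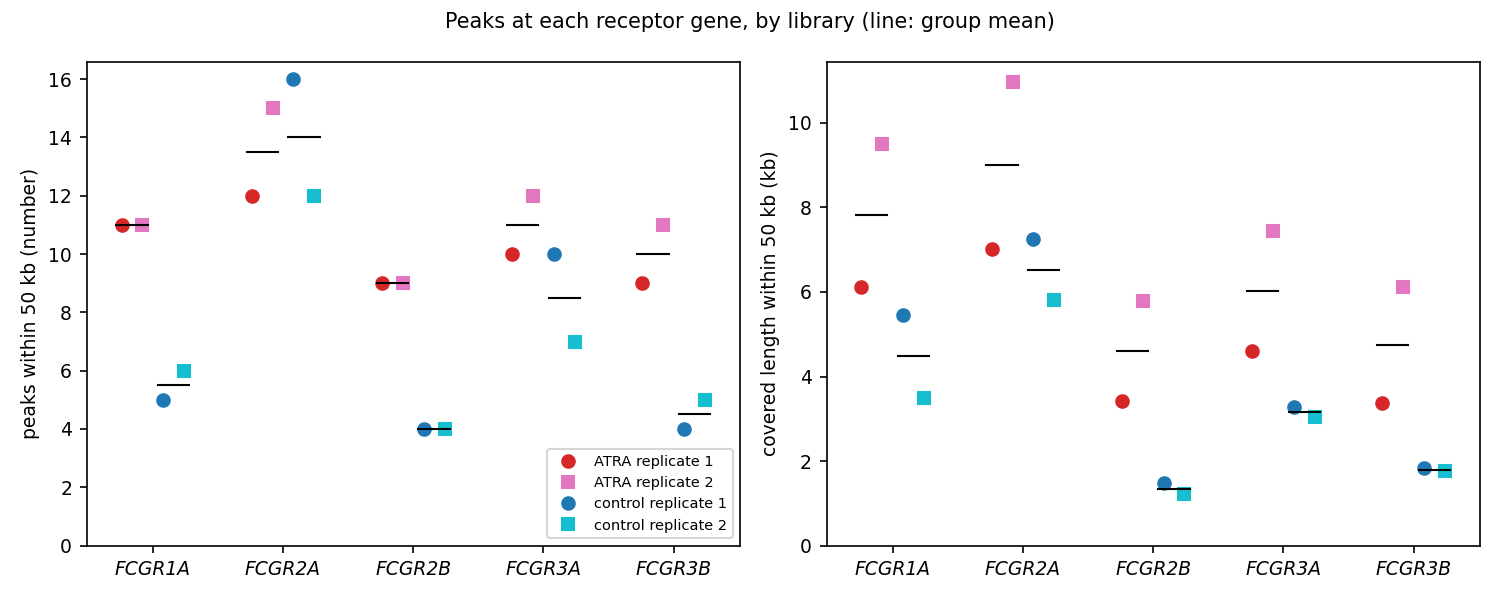
Number of peaks (left) and covered length in kb (right) within 50 kb of each of the 5 genes, with 1 point per library and a line at each group mean. At FCGR1A, FCGR2B and FCGR3B both ATRA libraries lie above both control libraries in peak number, and at FCGR2A and FCGR3A the groups overlap.

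Among the single genes, FCGR2B and FCGR3B differed most in proportion. FCGR2B had 9 and 9 peaks within 50 kb in the ATRA libraries and 4 and 4 in the control libraries, and FCGR3B had 9 and 11 against 4 and 5. FCGR3A had 10 and 12 peaks against 10 and 7, and FCGR2A had 12 and 15 against 16 and 12, so at these genes the groups overlapped (exact permutation p = 0.667 and p = 1). Both ATRA numbers lay above both control numbers at 3 of the 5 genes, counting FCGR1A, against 22.1% of protein-coding genes. At least 1 region open in the ATRA libraries alone lay within 50 kb of all 5 genes, against 40.9% of protein-coding genes, and 0 of the 5 had a region open in the control libraries alone, against 16.5%. These ranges overlap between neighbours, so a region can count for more than 1 gene: FCGR1A and FCGR3B had 3 such regions each, FCGR2B and FCGR3A 2 each and FCGR2A 1.

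The covered length within 50 kb, in bp, separated the groups at FCGR1A, FCGR2B, FCGR3A and FCGR3B. The share of all protein-coding genes at which it does so was not computed. FCGR2B had 3421 and 5779 bp in the ATRA libraries and 1475 and 1222 bp in the control libraries, and FCGR3B had 3382 and 6109 bp against 1826 and 1774 bp. FCGR3A had 4605 and 7438 bp against 3273 and 3046 bp, so that here the groups did not overlap although their peak numbers did. FCGR2A had 7021 and 10962 bp against 7247 and 5804 bp, and its groups overlapped. ATRA replicate 2 had the highest value at each of the 5 genes, and its list covered 31.6 Mb against 16.3 to 17.5 Mb in the others. Per Mb of peaks in their own list, the groups overlapped at FCGR1A (350 and 301 bp against 320 and 214 bp) and at FCGR2A. They stayed apart at FCGR2B, FCGR3B and FCGR3A, the last with 263 and 235 bp against 192 and 187 bp.

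A promoter peak, taken from 1 kb upstream to 100 bp downstream of any annotated start site, was present in all 4 libraries at 1 of the 5 genes, FCGR2A, against 44.2% of protein-coding genes. A promoter peak in both ATRA libraries alone was present at 0 of the 5, against 2.31%. The peaks at the FCGR2A promoter, R19 (chr1:161474883-161475785), stood at percentiles 53.4 and 85.5 in the ATRA libraries and 73.8 and 73.8 in the control libraries, and the ranges overlapped. They were 381 and 903 bp wide against 386 and 327 bp. This region lies before the duplication, and 6.09% of its 50-base words were repeated, so its reads can be placed. The 160 bases just before the annotated gene start (chr1:161475060-161475219, plus strand) are shown because this was the single receptor promoter with a peak in every library, and the capitals mark a match to the GATA motif, the only one of the 8 motifs searched that was found in this stretch.
FCGR2A promoter: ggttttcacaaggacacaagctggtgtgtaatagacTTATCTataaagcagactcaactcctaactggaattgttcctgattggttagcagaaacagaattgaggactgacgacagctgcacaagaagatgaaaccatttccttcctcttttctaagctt
FCGR2B, FCGR3A and FCGR3B had no promoter peak in any library. FCGR1A had 1 in control replicate 2 alone (R05, percentile 26.2, width 298 bp), in sequence of which 79.9% of the words were repeated.

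At FCGR2A, the other strong region was R21 (chr1:161493575-161494457) at the end of the gene and the start of HSPA6, a stress-inducible heat shock protein gene. Its percentiles were 65.0 and 81.7 in the ATRA libraries and 39.2 and 64.2 in the control libraries, so both ATRA values were higher, the nearest by less than 1 percentile. R22 (chr1:161499758-161501326), between HSPA6 and FCGR3A, was among the strongest of the window, at 86.8 and 91.9 in the ATRA libraries and 93.6 and 90.7 in the control libraries, and its match in copy 2, R31, stood at 78.5 and 88.3 against 90.2 and 86.4. Neither of this pair separated the groups.

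Beyond the end of FCGR3A the peaks of the groups differed in position. R23 (chr1:161509647-161510856), whose near edge lay 693 bp past the end of the gene, had percentiles of 75.2 and 69.9 in the ATRA libraries and 55.0 and 33.0 in the control libraries. The peaks of the groups were also displaced in part. Those of the ATRA libraries ran from 9.90 to 10.79 kb and from 10.07 to 10.73 kb downstream of the FCGR3A start site. Those of the control libraries ran from 10.47 to 11.06 kb (as 2 adjacent peaks) and from 10.69 to 11.11 kb. The nearer of the 2 adjacent peaks, from 10.47 to 10.71 kb, lay inside both ATRA peaks. A stretch of 397 bp (chr1:161510292-161510688) lay inside both ATRA peaks and outside every control peak. The matching region beyond the end of FCGR3B, R32 (chr1:161591440-161592314), lay 672 bp past that gene and had peaks in the ATRA libraries alone, at percentiles 69.8 and 79.9 and with widths of 684 and 839 bp. The stretches are 95.7% identical over R23, and 20.2% and 26.8% of the 50-base words of R23 and R32 were repeated. Both passed the filter that keeps only peaks with at least 50% of their words unique. Control peaks at R23 overlap the place that matches R32, and one of control replicate 1, 244 bp wide, lies wholly inside it, so that R32 was no longer open in the ATRA libraries alone once peaks at either copy were counted.

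**Figure D3:**
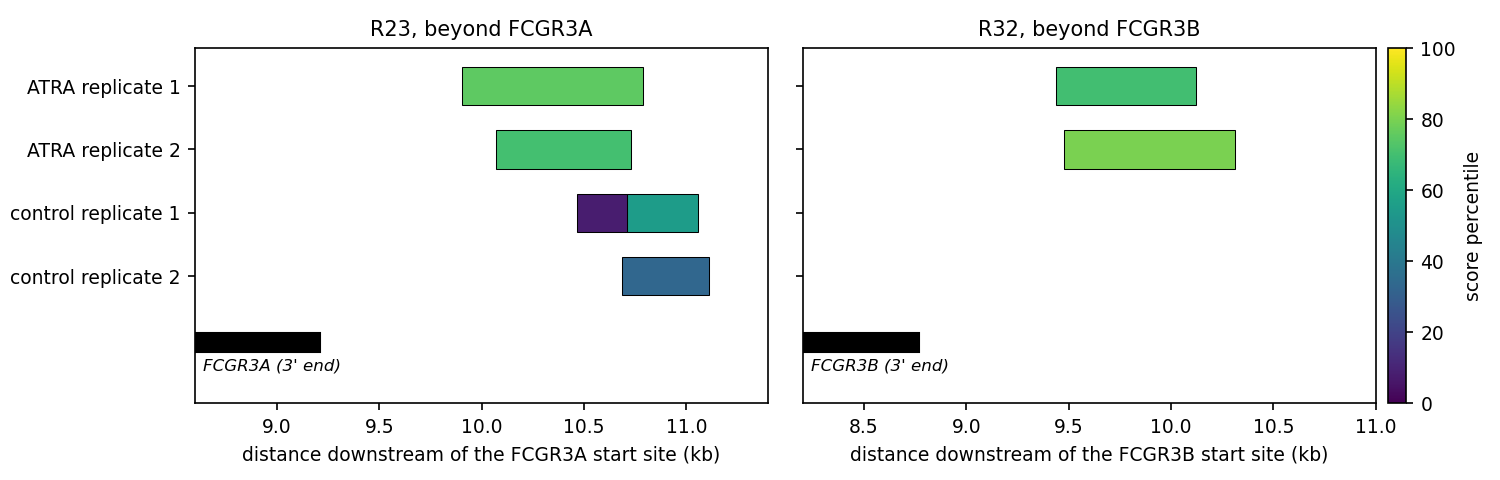
Peaks of each library at R23, beyond the end of FCGR3A (left), and at the matching R32, beyond the end of FCGR3B (right), against distance downstream of the gene's start site in kb, coloured by score percentile. At R23 the peaks of each control library reach farther from the gene than the ATRA peaks but overlap them, and the narrower peak of control replicate 1 lies inside both ATRA peaks. At R32 there are peaks in the ATRA libraries alone.

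Upstream of FCGR3A, R25 (chr1:161531042-161531497, 10.5 kb before the start site) was open in the ATRA libraries alone, at percentiles 34.3 and 0.0071, the second of which is among the weakest peaks of its list. Its match upstream of FCGR3B, R35, is 98.2% identical and had peaks at 15.2 and 24.4 in the ATRA libraries. Control replicate 1 also had a peak at R35, at percentile 2.04, so the pattern of R25 was lost with both copies counted. Next to R25, R26 (chr1:161531947-161532798) had a peak in all libraries, at percentiles 63.6 and 66.4 in the ATRA libraries and 14 and 19.6 in the control libraries, the widest separation of percentiles among the 16 regions with 4 peaks. Its widths were 448 and 852 bp against 196 and 204 bp. At the matching R36, upstream of FCGR3B, the peaks stood at 62.5 and 82.7 in the ATRA libraries, control replicate 1 had none and control replicate 2 had one at 65.2, so the separation was not repeated at the other copy.

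R29 (chr1:161546499-161546832), 25.9 kb before FCGR3A and near the start of FCGR2C, was open in the ATRA libraries alone at percentiles 50.4 and 46.4. Its match before FCGR2B, R39 (chr1:161628196-161628777, 4.4 kb upstream), had a peak in every library, at 31.3 and 67.1 in the ATRA libraries and 35.9 and 25.3 in the control libraries. The sequence of R29 is found in R39 without a difference, and 160 bases common to both (chr1:161628435-161628594) are shown to make this plain, with matches to the GATA and RUNX motifs in capitals.
R39: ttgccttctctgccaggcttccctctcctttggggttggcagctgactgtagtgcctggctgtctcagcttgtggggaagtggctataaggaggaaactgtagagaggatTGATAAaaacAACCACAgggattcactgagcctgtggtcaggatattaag
A read that lies wholly within this stretch cannot be assigned to one place, so whether R29 was open in the ATRA libraries alone cannot be told from these lists.

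FCGR2B had 2 further upstream regions. R38 (chr1:161623260-161623899, 9.4 kb upstream) had percentiles of 81.1 and 86.2 in the ATRA libraries and 64.2 and 75.2 in the control libraries, and the groups did not overlap. Its match in copy 1, R28 (chr1:161541463-161542044), which is 99.7% identical, stood at 69.0 and 84.0 against 79.7 and 75.1, and there the groups overlapped. R37 (chr1:161617373-161617766, 15.4 kb upstream) was open in the ATRA libraries alone, at percentiles 31.2 and 2.89 and widths of 220 and 394 bp. Its match in copy 1, R27, had a peak in ATRA replicate 2 alone, at 24.3. In R37 and R27, 10.7% and 11.6% of the 50-base words were repeated, so this pair, printed above, was the one site of the duplication where the control libraries had no peak at either copy and both ATRA libraries had one. The peaks were weak, all in the lower part of their lists.

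**Figure D4:**
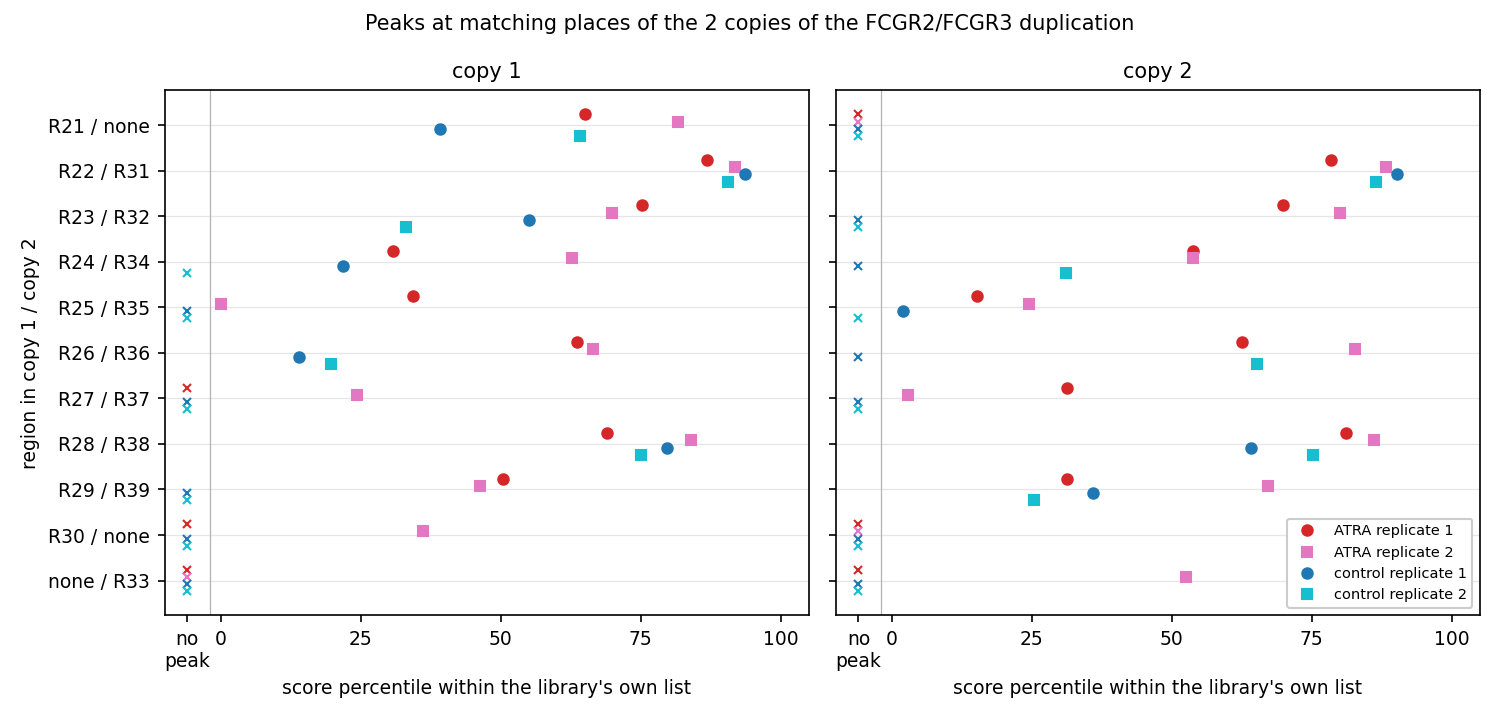
Score percentile of each library's peak at the 11 matching places of the duplication, in copy 1 (left) and copy 2 (right), with crosses at the left edge for libraries without a peak. Pairs are named by their regions, and "none" stands for a matching place without a region. At R23 and R26 in copy 1 both ATRA percentiles exceed both control percentiles. In copy 2 the control libraries have no peak at R32, and at R36 control replicate 2 lies above ATRA replicate 1. At R22 / R31 the groups overlap at both copies.

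In all, 11 places of the duplication had a region at one copy or both, and the matching sequences were 91.4% to 100% identical. With both copies pooled, 7 places were open in every library, 1 in both ATRA libraries alone (R27 and R37) and 3 in another pattern. ATRA replicate 1 had a peak at 8 places in copy 1 and 8 in copy 2, and ATRA replicate 2 at 10 and 9. The control libraries had 6 and 5 in copy 1 and 4 and 5 in copy 2. Control replicate 1 had a peak at one copy and not at the other at 6 of the places, the most of any library. FCGR2C, which joins the copies and is not counted among the 5 genes, had a promoter peak in ATRA replicate 2 alone (R30, percentile 36.1). That sequence is identical to the matching one at FCGR2B, where no library had a peak. R33, over an exon of FCGR3B, was also present in ATRA replicate 2 alone, at percentile 52.6.

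**Figure D5:**
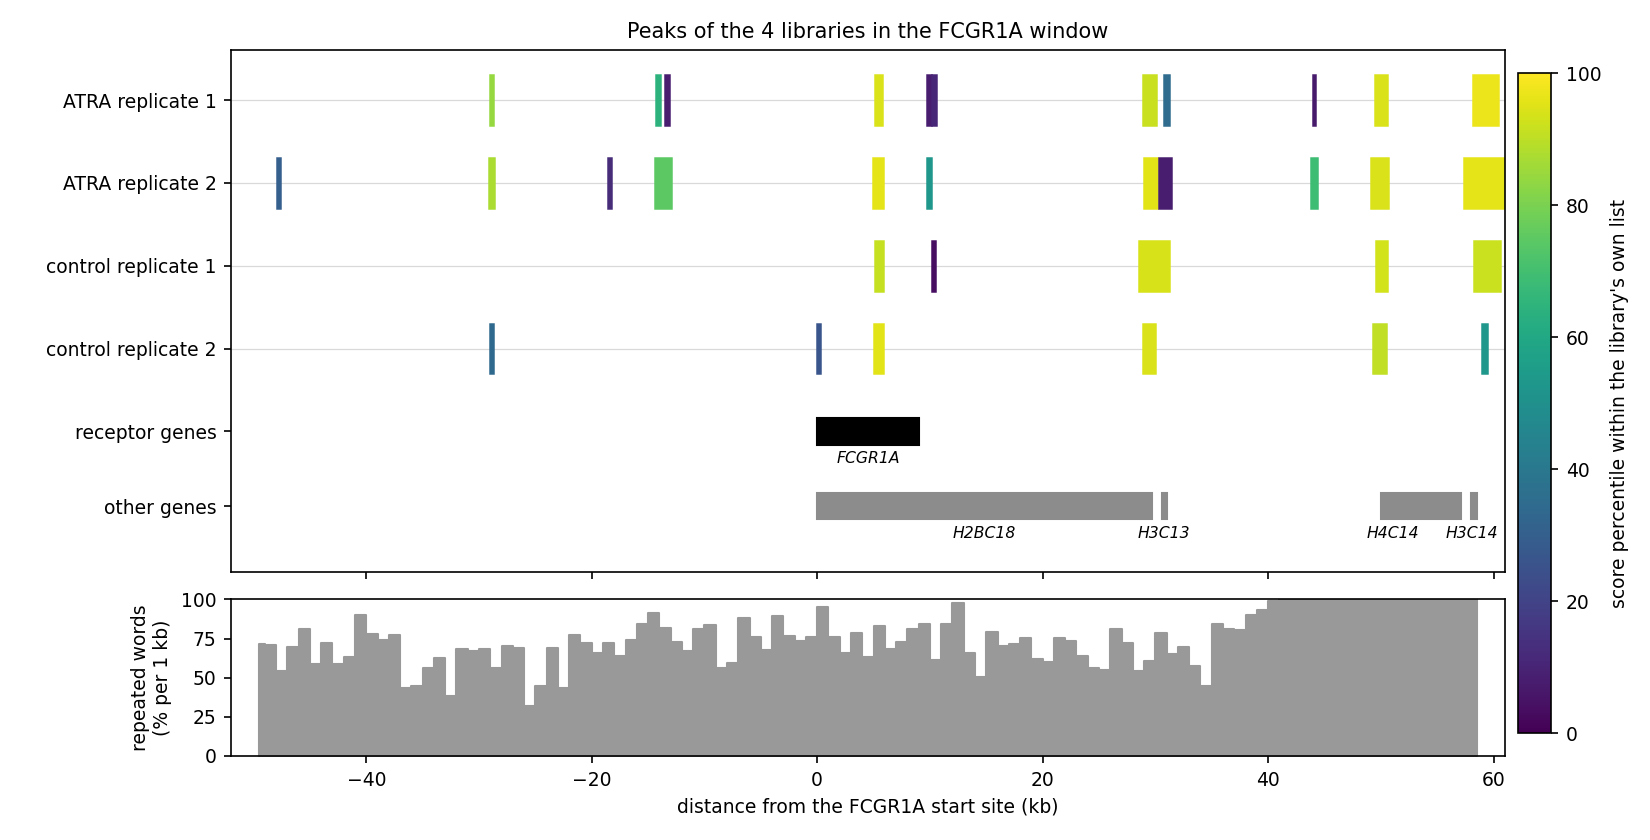
Peaks of the 4 libraries in the FCGR1A window (boxes, coloured by score percentile within the library's own list), against distance from the FCGR1A start site in kb, with genes below. The grey profile gives the percentage of repeated 50-base words, which is high along the whole window and reaches 100 at the histone genes on the right.

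At FCGR1A, the strongest region near the gene was R06 (chr1:149759169-149760090, 5.4 kb downstream of the start site), inside the gene and over one of its exons. It stood at percentiles 94.3 and 95.7 in the ATRA libraries and 91.1 and 95.5 in the control libraries, and the groups overlapped. Of its 50-base words, 86.3% were repeated. The 3 regions open in the ATRA libraries alone lay on both sides of the gene. R04 (chr1:149739858-149741265, 13.7 kb upstream) was the strongest, at 64.1 and 75, and was 738 and 1408 bp wide, but 83.0% of its words were repeated and a control library had a peak at its other copy. R07 (chr1:149763994-149764315, 9.9 kb downstream of the start site) overlapped an exon of the non-coding gene ENSG00000233030 and stood at 7.87 and 52.9. Of its words 48.7% were repeated, the only one of the 3 to pass the filter on repeated words. Control replicate 2 had a peak at another copy of R07, 99.1% identical, so R07 was no longer open in the ATRA libraries alone with copies counted. R10 (chr1:149798008-149798564, 44.1 kb downstream) stood at 7.0 and 68.6. All of its words were repeated, with a copy identical over its whole length at chr1:149838378-149838934, where the ATRA libraries had peaks and the control libraries had none.

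R02 (chr1:149725158-149725563, 28.9 kb upstream), over no annotated gene, stood at 84.2 and 87.4 in the ATRA libraries and at 33.8 in control replicate 2, and control replicate 1 had no peak there. Its widths were 313 and 406 bp in the ATRA libraries and 261 bp in control replicate 2. Of its words 61.3% were repeated, and with its copies counted it was open in all libraries.

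Further strong peaks of the FCGR1A window lay at replication-dependent histone genes. R09, over H2BC18 and H3C13, stood between 91.6 and 95.5 in all libraries and did not separate the groups. R11, at H4C14, stood at 94.3 and 94.3 in the ATRA libraries and 93.3 and 90.5 in the control libraries, and R12, at H3C14, stood at 97.2 and 95.8 against 92.1 and 87.0. R12 runs past the edge of the window, and the last of these values belongs to a peak beyond it. At both, the ATRA percentiles were the higher, and all or nearly all of their words were repeated (100% and 96.4%).

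At the far edge of the FCGR2/FCGR3 window, before FCGR2A, R13, R14 and R15 lay in a repeat of their own, with 97.4% to 100% of words repeated. R13 runs past the edge of the window, and the peak of control replicate 2 in it lay wholly beyond that edge. R15 (chr1:161438656-161440383) was the one region of the 16 with a peak in all libraries at which both control percentiles were higher, at 96.0 and 84.3 against 83.4 and 79.9 in the ATRA libraries. Between these and FCGR2A, R18 (chr1:161461262-161461675, 13.8 kb upstream) stood at 67.8 and 50.3 in the control libraries and at 11.1 in ATRA replicate 2, and ATRA replicate 1 had no peak there. Of its words 2.47% were repeated. At the other edge, FCRLB, an Fc receptor-like gene, had R41 (chr1:161695878-161697247), with percentiles of 62.1 and 79.4 in the ATRA libraries, 45.6 in control replicate 1 and no peak in control replicate 2. R41 held no repeated word.

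Motifs were searched on both strands in the 200 bp about each region centre. PU.1 was searched as GAGGAAGT, CEBP as TTGCNNAA and STAT as TTCNNNGAA. RUNX was searched as AACCACA, and the AP-1 motif as TGANTCA where the open letter could be C or G. The motif of GATA factors was searched with an A or a T in front of the letters GATAA. CTCF and DR5, the retinoic acid receptor direct repeat, were searched by their consensus sequences. Matches to different motifs that overlapped were each counted. GATA matches were the most frequent, in 11 of the 41 regions (26.8%) against 18.8% of all regions. CEBP matches were found in 6 (14.6% against 12.3%), AP-1 in 5 (12.2% against 5.73%), RUNX in 4 (9.76% against 8.54%) and STAT in 2 (4.88% against 6.05%). PU.1, a regulator of myeloid genes, matched in 1 region (2.44% against 8.95%) and CTCF in 1 (2.44% against 5.88%). DR5 matched in 0 regions, against 0.0961% of all regions. Among the 7 regions open in the ATRA libraries alone, R25 held a STAT match and R29 a RUNX and a GATA match, and the other 5 held none in these 200 bp. Over their whole length, R04 and R10 held CEBP and GATA matches, and R32 held PU.1, RUNX, GATA and STAT matches. R25 also held a CEBP match, R29 held no further motif, and R07 and R37 held none. Over the whole of each region the PU.1 letters were found in R03, R23 and R32. Copies share their letters, so these counts are not of independent sequences.

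Receptors of other Fc classes and the signalling partners of the family were examined as lists. FCRLA and FCRLB, on the first list, lie in the FCGR2/FCGR3 window, so some of their peaks are also counted there. Of 13 other Fc receptor genes, 7 (53.8%, against 40.9% of protein-coding genes) had a region open in the ATRA libraries alone within 50 kb and 2 (15.4%, against 16.5%) one open in the control libraries alone. Both ATRA peak numbers lay above both control numbers at 6 of the 13, FCRLB included (46.2%, against 22.1%). FCGRT, which encodes the neonatal Fc receptor that carries IgG across cells and protects it from breakdown, was the only one with a promoter peak in both ATRA libraries and in neither control library, and it had 8 and 8 peaks within 50 kb against 3 and 4. A promoter peak in all libraries was present at 1 of the 13, TRIM21, a cytosolic antibody receptor. FCAR, the IgA receptor of myeloid cells, had 2 and 4 peaks within 50 kb in the ATRA libraries and 0 and 0 in the control libraries, with no promoter peak.

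Of 18 signalling partners, 13 (72.2%, against 44.2% of protein-coding genes) had a promoter peak in all libraries and 0 had one in the ATRA libraries alone (against 2.31%). Regions open in the ATRA libraries alone lay near 15 of them (83.3%, against 40.9%) and regions open in the control libraries alone near 5 (27.8%, against 16.5%). FCER1G, the gamma chain through which FCGR1A and FCGR3A signal, had a promoter peak in all libraries and 13 and 14 peaks within 50 kb against 10 and 10. SYK, the kinase recruited by the activating receptors, had 10 and 12 against 6 and 7 and had 4 regions open in the ATRA libraries alone. INPP5D, a phosphatase recruited by FCGR2B, had 12 and 17 against 8 and 10. FGR, a kinase of the Src family, had a promoter peak in ATRA replicate 2 alone and 11 and 10 peaks against 6 and 4. Both ATRA numbers lay above both control numbers at 12 of the 18 partners (66.7%), set against the 22.1% of protein-coding genes given above. The partners named so far were all among these 12. The groups overlapped at the others, such as CD247 (7 and 6 against 7 and 8) and PTPRC (6 and 11 against 8 and 8). PTPRC had 1 region open in the control libraries alone, and neither gene had one open in the ATRA libraries alone.

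By covered length per Mb of peaks in each list over the 4 libraries, the genes outside the windows closest to each receptor gene (Euclidean distance, in bp per Mb) were PSMC3 (30.5) and FAF1 (35.6) for FCGR1A, GRK6 (41.8) for FCGR2A, PLEKHO1 (11.4) for FCGR2B, SLC8A1 (17.8) and ENSG00000249240 (18.5) for FCGR3A, and SIGLEC5 (16.2) for FCGR3B. The values of FCGR2B were 195 and 183 bp per Mb in the ATRA libraries and 86.5 and 74.9 in the control libraries, and those of PLEKHO1 were 194 and 183 against 85.9 and 63.5. The values of FCGR3B were 193 and 193 against 107 and 109, and those of SIGLEC5 were 199 and 187 against 95.3 and 101.6. This is a likeness of 4 values and a description only.

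The lists held 42081 to 63541 peaks, with the most in ATRA replicate 2, which also had the widest peaks (median 416 bp against 291 to 328 bp in the others). They hold no read counts, so the sequencing depth is unknown, and its part in the differences in peak number was not tested. With the same number of peaks taken from every list, 42081 by score, the FCGR2/FCGR3 window held 23 and 20 peaks in the ATRA libraries and 21 and 17 in the control libraries, and the FCGR1A window 11 and 8 against 5 and 6. A promoter peak in all libraries was present at 3 of 6 precursor markers (SPI1, CEBPE and LYZ) and at 2 of 3 mature granulocyte markers (ITGAM and NCF1). AZU1 and FPR1 had no promoter peak in any library, CSF3R had one in control replicate 1 alone, and MPO had one in ATRA replicate 2 and control replicate 2. Of the markers of other cells, 3 T cell and 3 erythroid genes had no promoter peak, 1 of 4 NK cell genes had one in control replicate 1 alone, and of the B cell genes CD79A had one in ATRA replicate 2 alone and MS4A1 had none.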

How the data were processed

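Open chromatin was measured by ATAC-seq in 4 HL-60 libraries, 2 from ATRA-treated and 2 from control cells, with groups and replicate numbers taken from the sample titles. According to the labels and the study's methods, libraries were amplified by PCR (15 cycles in the labels and another number in the methods), adapters were trimmed with cutadapt, reads were aligned to hg19 with Bowtie2 (Bowtie in the methods) and peaks were called in each library with MACS2. The treatment of reads with several matches, PCR duplicates and the Tn5 offset is not given in the sources used here. The deposited lists give the position and a score of each peak, with no stated scale, and the score was used only as a midrank percentile within its own list. Precision is limited by the number of libraries.

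Peaks were set against the GRCh37 sequence and GENCODE release 44 lifted to it, in which 0 chromosomes were missing and 0 peaks passed a chromosome end. Coordinates are 1-based. Repeated words were counted on both strands over the genome, and copies were aligned with BLAST+ 2.17.0 and Biopython 1.88. Python 3.11.15, NumPy 2.4.6, pysam 0.24.0, samtools 1.23.1 and matplotlib 3.10.9 were used. Libraries, not peaks, were the unit of the exact two-sided permutation test (6 assignments). Region joining was tested on 20000 simulated regions, and the class of 100% was recovered. These regions lay far apart, with peaks of equal width in each library, so adjacent, strongly displaced or duplicated peaks were not covered. The named genes were the 5 receptor genes, other genes of the windows with a region, pathway genes (those with a promoter peak in 1 group alone, plus others chosen after their values were seen) and for each receptor gene the 2 closest genes by covered length, of which some are not reported here. The members, lists and tests were chosen with earlier results of these data known.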

Additional observations from a re-analysis of the deposited data

How the results depend on the processing

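The higher peak number and covered length of the ATRA libraries in both windows kept their direction under all 8 alternatives, although no test could pass a threshold. With 1 library left out the direction could not change, because both ATRA values lay above both control values for each measure. Leaving out a library therefore shows only how far the size of the differences moved. Of the 8, the replicate block and the joining of regions at 50% of the shorter peak could not change these values. The difference of means ranged from 4 to 8 peaks and from 2686 to 9862 bp at FCGR2/FCGR3 and from 5 to 6 peaks and from 1648 to 5026 bp at FCGR1A when 1 library was left out. The covered-length differences were 6274 and 3337 bp with all libraries; they were 2686 and 1648 bp without ATRA replicate 2, and 9862 and 5026 bp without ATRA replicate 1. With the same number of peaks in every list the FCGR2/FCGR3 peak difference was 2.5 instead of 6 (exact permutation p = 0.667), with the groups overlapping. With peaks of mostly unique words the differences were 4 and 1.5 peaks and 3831.5 and 449.5 bp. With peaks set to 200 bp the covered-length differences were both 1100 bp. With the upper part of each list the FCGR1A differences were 3 peaks and 2049 bp. Within 10 kb of the genes the covered-length differences were 2900.5 and 288.5 bp, and within 100 kb that of FCGR1A was 5382.5 bp. Within 10 kb the differences in peak number were 1.5 and 0.5. The 7 regions open in the ATRA libraries alone became 2 within 10 kb, 4 with peaks of mostly unique words and 3 with copies collapsed (chosen after seeing the data), and ranged from 9 to 12 with 1 library left out (12 without ATRA replicate 1, 11 without control replicate 1, where 1 library of a group then decides). The 0 regions open in the control libraries alone became 1 with equal peak numbers, 1 with peaks from percentile 50 up, 1 with regions joined only where they overlapped by 50% of the shorter peak and 3 with peaks set to 200 bp, and ranged from 0 to 2 with 1 library left out (1 without ATRA replicate 2, 2 without control replicate 1).

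Replicate numbers are shared between the groups, and the replicate differences of the groups correlated at r = 0.21 over 23653 regions. Used as a replicate block they change only the test, so each value stayed as it was (6 and 5.5 peaks, 6274 and 3337 bp, 7 and 0 regions). The exact sign-flip test gave p = 0.5, the smallest that 2 pairs allow. Repeated words made up 84.0% (FCGR1A) and 53.9% (FCGR2/FCGR3) with 32 bases and 56.2% and 29.3% with 100. Over whole regions, GATA matches rose to 19 and CEBP matches to 16 of 41 regions, against 35.9% and 23.6% of all regions.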
